A study of Mus musculus with 24 samples.

Results

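PRC1 is the Polycomb repressive complex in which RING1A or RING1B, a pair of RING finger E3 ligases, is joined to a PCGF protein, and it places ubiquitin on histone H2A (H2AK119ub1). Canonical PRC1 also holds CBX and PHC proteins and binds the H3K27 methylation that PRC2 makes, while variant PRC1 holds RYBP or YAF2 in their place. In embryonic stem cells (ESCs) the complex is known for keeping developmental genes with CpG-rich promoters silent. In the PRC1CPM line, OHT leaves RING1A and RING1B in the cell but in a catalytically inactive form, so the comparison of OHT-treated with untreated PRC1CPM cells asks which genes change when the ligase activity, and not the protein, is taken away.

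The comparison holds 6 of the 12 RNA libraries of the series, chosen by their labels as the PRC1CPM line, with 3 untreated replicates and 3 OHT-treated replicates. The cells are E14 mouse ESCs of 1 clone, clone 41, grown with serum and LIF on gelatin. All 6 libraries, the untreated ones included, carry Ring1a with I50A and D53K on both alleles and an ERT2-Cre fusion at Rosa26. Both Ring1b alleles hold exon 3 as a wild-type copy beside an inverted copy with I53A and D56K, and Cre switches the transcript from the first to the second. The OHT group received 800 nM 4-hydroxytamoxifen for 72 h, and the untreated group none at 0 h, with no vehicle group in the comparison, so the allele switch cannot be told apart from OHT or Cre alone. Untreated cells are therefore not wild type, since RING1A is already inactive in them. As a comparison line, PRC1CKO cells lack Ring1a and lose floxed Ring1b with the same OHT treatment. Drosophila SG4 cells were mixed in before RNA extraction, so a normalised read count is a count per cell on the scale the study set, and the library values below are given in the order of replicates 1, 2 and 3.

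The residues that the alleles change lie in the second coding exon of each gene. They are shown here because they are the sites of the inactivating changes: those of Rnf2 are switched by OHT, while those of Ring1 are changed in all 6 libraries. The stretches are the reference locus, not an allele of these cells, since both copies of Ring1b exon 3 in the cassette were recoded at wobble positions. The codons of the isoleucine and the aspartate are in capitals, on GRCm38 and in the sense of the gene.
Rnf2 (RING1B), chr1:151476927-151476988, minus strand, codons 53 and 56: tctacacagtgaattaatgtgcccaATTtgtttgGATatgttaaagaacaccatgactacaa
Ring1 (RING1A), chr17:34023348-34023409, minus strand, codons 50 and 53: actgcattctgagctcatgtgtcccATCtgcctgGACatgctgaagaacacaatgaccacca
The 2 stretches hold the same pair of residues at the same spacing. The guides that the study lists under the number 1 for each gene were matched to the same places, with the base triplet of the PAM in capitals.
RING1B guide 1, chr1:151476957-151476976, minus strand: attaatgtgcccaatttgttTGG
RING1A guide 1, chr17:34023365-34023384, plus strand: ttcagcatgtccaggcagatGGG
The RING1B guide covers all 3 bases of codon 53, and the RING1A guide covers the 6 bases of both codons on the other strand.

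The targeted genes were still transcribed. Ring1 (RING1A) had 179, 182 and 125 normalised reads untreated and 161, 111 and 148 after OHT. Rnf2 (RING1B) had 1850.1, 1659 and 1578 normalised reads untreated and 1724, 1295 and 1513 after OHT. The groups overlapped for both, and the log2 changes were -0.20 ± 0.30 (SE, adjusted p = 0.816) and -0.17 ± 0.21 (SE, adjusted p = 0.763), neither past the test. Both values turn above 0 without the gDNA-seq correction of the spike-in. Reads were counted over whole gene bodies, so these counts do not tell the mutant exon from the wild-type one and are no check of the switch.

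Reads on genes came to 19062652, 20241765 and 14668159 in the untreated libraries and 27016156, 23164194 and 19934821 in the OHT libraries. Every deposited value was a whole multiple of 1 read, so the reads behind each value are known. Of the values of 1 to 20 reads, 80.2% were even, as when both reads of a pair are counted, so 2 reads are often 1 fragment and counting error is larger than the read number gives. On all transcripts, the first principal component (58.7% of the variance) put the 3 untreated libraries on one side and the 3 OHT libraries on the other.

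Loss of catalysis was followed by increases far more often than by decreases. A transcript was called when its adjusted p, from limma with Benjamini-Hochberg adjustment over all 16940 transcripts tested, was under 0.05 and its fold change above 1.5. The fit took in all 12 RNA libraries, so each SE and p rests on a spread estimated from both lines, PRC1CKO included. Of the 16940 transcripts 2226 (13.1%) were called higher and 237 (1.4%) lower in OHT-treated cells. The increases had a median log2 change of 1.54, with 1777 above 2-fold, 698 above 4-fold and 34 above 16-fold. The decreases were smaller, with a median of -1.02, 125 beyond 2-fold and 8 beyond 4-fold. All 3 same-numbered pairs of libraries moved up for 2222 of the transcripts called higher and down for all 237 called lower. The 3 libraries of each group were fully apart for 2120 and 203 of them, beside 22.4% of all transcripts tested.

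With the replicate number as a block, since same-numbered libraries deviated together, 3012 transcripts were called higher and 453 (2.67%) lower. Leaving out untreated replicate 1 or 3 or OHT replicate 2 or 3 brought the lower calls to between 123 and 152, and leaving out OHT replicate 1 brought the higher calls to 1439, while 1295 higher and 83 lower calls held in all 6 such fits. The median log2 change of all transcripts was 0.0996, with 0.156, -0.0430 and 0.197 in pairs 1, 2 and 3. TMM scaling, which sets the bulk of genes to no change, put that median at -0.0072 and the share of calls that were higher at 80.1% in place of 90.4%. Without the gDNA-seq correction these became 0.394 and 98.1%.

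**Figure D1:**
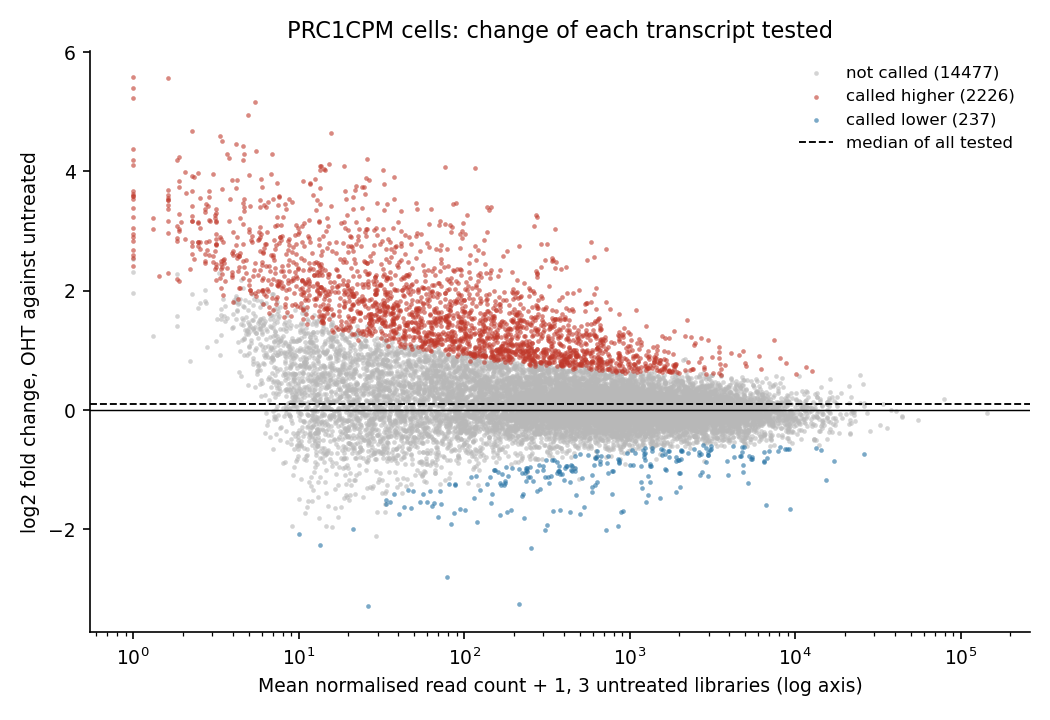
Each point is 1 of the 16940 transcripts tested; the horizontal log axis gives the mean normalised read count of the 3 untreated libraries plus 1 and the vertical axis the log2 fold change of OHT-treated against untreated PRC1CPM cells. The 2226 transcripts called higher (red) reach further from 0 than the 237 called lower (blue), and they lie mostly at low untreated counts.

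Gene lists were counted with 1 transcript per symbol, against which 2010 of 15792 symbols (12.7%) were higher and 221 (1.4%) lower, with a median log2 change of 0.0915. Developmental transcription factors had the largest share higher. Of the 264 on the lists, 229 were tested, of which 150 (65.5%) were higher and 1, Otx2, was lower, with a median of 2.00. Neuronal guidance, channel and receptor genes were higher in 99 of 191 (51.8%), germline genes in 23 of 48 (47.9%), markers of other cell types in 18 of 47 (38.3%) and signalling genes in 45 of 118 (38.1%). Among ribosomal protein, ribosome biogenesis, oxidative phosphorylation, glycolysis and cholesterol synthesis genes, none of 186 was higher. The share for developmental factors is raised by the filter: 77 of the 229 had under 10 reads in each untreated library and could pass the read minimum only through other libraries. Of the 152 with at least 10 reads in an untreated library, 84 were higher, with a median of 1.41.

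**Figure D2:**
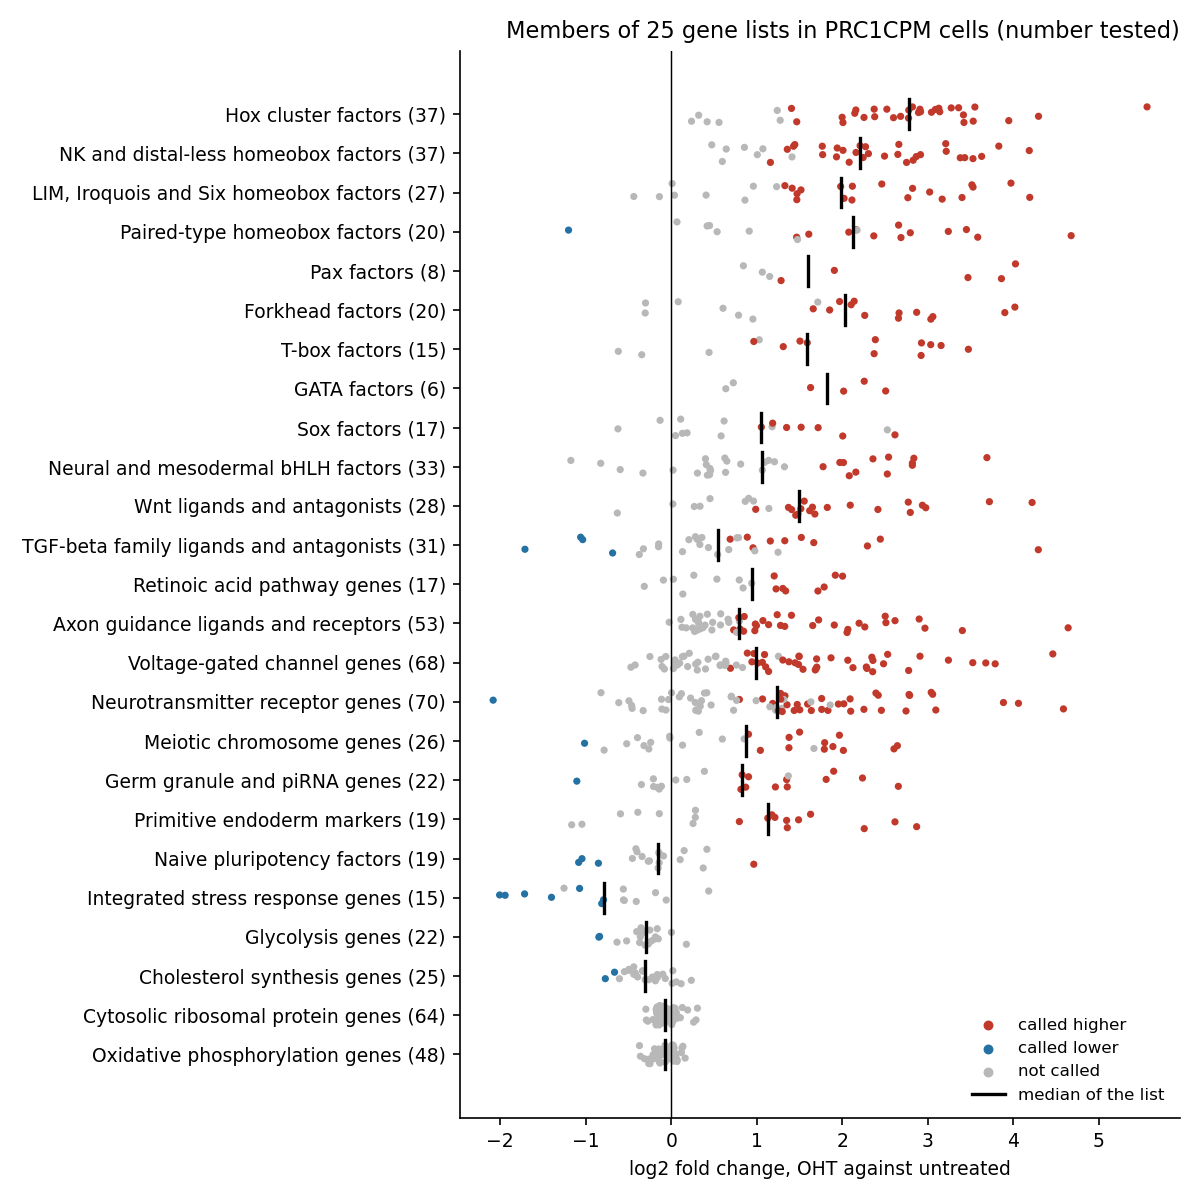
Each point is 1 tested gene of a list, placed by its log2 fold change in OHT-treated against untreated PRC1CPM cells, with the median of each list as a black bar and its number of tested genes in brackets. The Hox list has the highest median (2.78) and the integrated stress response list the lowest (-0.79), while ribosomal protein genes stay near 0 with no call. The Hox median is raised by the filter: 27 of the 37 had under 10 reads in every untreated library, and the other 10 have a median of 2.08.

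Hox genes, the clustered homeobox factors that set position along the body axis, were higher in 31 of the 37 tested, lower in none, with a median log2 change of 2.78. Most began near 0: 27 of the 37 had under 10 reads in every untreated library and passed the read minimum only through other libraries. Of the other 10, 8 were higher, with a median log2 change of 2.08. Hoxa10, a factor of the posterior axis, had 0, 1.88 and 0 normalised reads untreated and 90.7, 52.6 and 61.3 after OHT. It went from 2 reads in all to 218, a ratio of 86.8 over read pairs with a 95% counting interval of 15.2 to 3458. Hoxb3, an anterior member, had 0, 0 and 8.13 normalised reads untreated and 50.2, 44.8 and 28.5 after OHT. Hoxa7 had 5.11, 0.942 and 0 normalised reads untreated and 36.7, 35.6 and 30.7 after OHT. In both, every OHT library lay above every untreated one, with log2 changes of 4.30 ± 0.60 (SE, adjusted p = 2.61e-07) and 3.95 ± 0.66 (SE, adjusted p = 8.07e-06), which at such low untreated counts depend on the pseudocount of 1. Without untreated replicate 3 they were 5.36 and 3.35. Among caudal and even-skipped factors, 6 of 9 were higher, and 3 with DESeq2 or without untreated replicate 3 or OHT replicate 1. Of the 7 with at least 10 reads in an untreated library, 4 were higher. Cdx1, which acts upstream of Hox genes, rose by a log2 change of 3.12 ± 0.35 (SE, adjusted p = 9.95e-10), and Pdx1, the pancreatic factor, by 3.14 ± 0.65 (SE, adjusted p = 2.38e-04). Pdx1 overlaps a gene on the other strand, and whether reads were counted by strand is not given in the sources used here. The same limit holds for Bmp6, Ccnd2, Auts2 and 2610037D02Rik.

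Other homeobox families moved the same way. NK and distal-less factors were higher in 30 of the 37 tested, and 17 of the 37 had under 10 reads in each untreated library. Of the other 20, 13 were higher, with a median log2 change of 1.44 beside 2.21 for all 37. LIM, Iroquois and sine oculis factors were higher in 19 of 27, and in 13 of the 21 with at least 10 reads in an untreated library. Lhx8, a LIM factor of forebrain neurons, had 2.56, 5.65 and 2.71 normalised reads untreated and 77.2, 68.0 and 98.6 after OHT. Six2, which maintains kidney progenitors, had 7.67, 7.54 and 2.71 normalised reads untreated and 92.7, 57.2 and 76.7 after OHT. No OHT library overlapped an untreated library for either gene, and the log2 changes were 4.19 ± 0.56 (SE, adjusted p = 1.08e-07) and 3.53 ± 0.52 (SE, adjusted p = 7.74e-07). Paired-type factors were higher in 12 of 20 and lower in 1. Of the 16 with at least 10 reads in an untreated library, 10 were higher and 1 lower. Pitx1, a hindlimb and pituitary factor, had 5.11, 9.42 and 5.42 normalised reads untreated and 113, 72.7 and 83.2 after OHT. Alx4, a factor of limb and skull, had 10.2, 18.8 and 8.13 normalised reads untreated and 185, 109 and 129 after OHT. Both groups were apart, with log2 changes of 3.58 ± 0.52 (SE, adjusted p = 6.32e-07) and 3.45 ± 0.43 (SE, adjusted p = 1.76e-08). Otx2, a forebrain factor that also marks the passage out of naive pluripotency, went the other way, with 476, 654 and 777 normalised reads untreated and 241, 251 and 326 after OHT. All 3 OHT libraries lay below the untreated ones, with a log2 change of -1.20 ± 0.26 (SE, adjusted p = 5.91e-04).

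Of 8 Pax factors tested 5 were higher, and all 8 with the replicate block or without the gDNA-seq correction. Of the 6 with at least 10 reads in an untreated library, 3 were higher. Pax3, a factor of neural crest and muscle progenitors, had 12.8, 5.65 and 21.7 normalised reads untreated and 264, 196 and 171 after OHT. The lowest OHT library was above the highest untreated library, with a log2 change of 4.03 ± 0.39 (SE, adjusted p = 1.86e-11). Pax1 and Pax9, paired-box factors of the sclerotome, changed by 3.86 ± 0.57 (SE, adjusted p = 6.92e-07) and 3.47 ± 0.51 (SE, adjusted p = 6.92e-07). Forkhead factors were higher in 13 of the 20 tested, and 6 of the 20 had under 10 reads in each untreated library. Of the other 14, 8 were higher. Foxd2 had 2.56, 3.77 and 8.13 normalised reads untreated and 49.2, 41.0 and 41.6 after OHT, and Foxa2, a pioneer factor of endoderm, had 2.56, 1.88 and 2.71 normalised reads untreated and 33.8, 14.7 and 26.3 after OHT. The groups did not overlap for either, and the log2 changes were 3.06 ± 0.58 (SE, adjusted p = 7.06e-05) and 2.87 ± 0.58 (SE, adjusted p = 2.08e-04). Sox factors were higher in 7 of 17, and in 4 without untreated replicate 3 or OHT replicate 1. Among them Sox3, a factor of early neural cells, rose by 2.01 ± 0.38 (SE, adjusted p = 6.57e-05) and Sox10, of neural crest, by 1.72 ± 0.40 (SE, adjusted p = 0.00106), both on the log2 scale.

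T-box and GATA factors direct mesoderm, heart and endoderm, and few of them began near 0, with 1 of 15 and 1 of 6 under 10 reads in every untreated library. T-box factors were higher in 11 of 15. Tbx15, of limb and craniofacial mesenchyme, had 71.6, 54.7 and 24.4 normalised reads untreated and 665, 475 and 445 after OHT. Tbx20, of the heart, had 57.5, 33.0 and 37.96 normalised reads untreated and 389, 271 and 319.9 after OHT. The OHT libraries were above the untreated libraries throughout, with log2 changes of 3.48 ± 0.33 (SE, adjusted p = 2.06e-11) and 2.93 ± 0.34 (SE, adjusted p = 3.54e-09). GATA factors were higher in 4 of 6. Gata6, a factor of primitive endoderm and heart, had 53.7, 67.9 and 75.9 normalised reads untreated and 369, 210.3 and 404 after OHT. Gata4, its partner in endoderm, had 132, 118.7 and 119.3 normalised reads untreated and 461, 307 and 397 after OHT. Their log2 changes were 2.26 ± 0.32 (SE, adjusted p = 2.91e-07) and 1.63 ± 0.30 (SE, adjusted p = 4.00e-05), with no overlap of the groups, and Gata6 overlaps a gene on the other strand. Neural and mesodermal bHLH factors were higher in 12 of 33, and in 5 of the 23 that had at least 10 reads in an untreated library. Twist1, a mesenchymal factor, rose by a log2 change of 1.78 ± 0.44 (SE, adjusted p = 0.0024). Hand1, of heart and trophoblast, changed by 1.97 ± 0.48 (SE, adjusted p = 0.00182), a call that DESeq2 did not make.

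**Figure D3:**
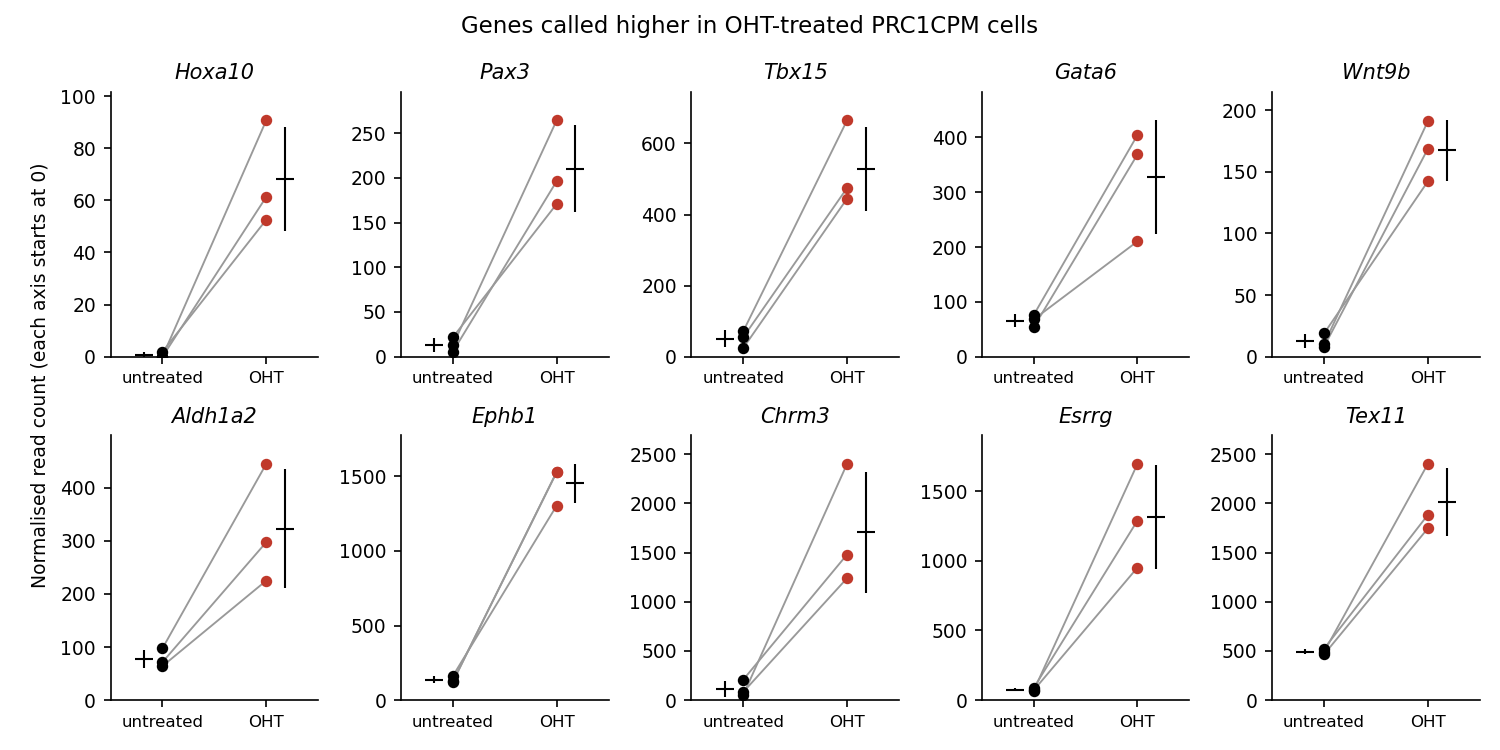
Normalised read counts of 10 genes called higher, with untreated (black) and OHT (red) PRC1CPM libraries, grey lines joining libraries of the same replicate number and a bar with the mean ± SD of 3 libraries beside each group. In every panel all 3 OHT libraries lie above all 3 untreated ones, as for Ephb1, which goes from between 123 and 162 to between 1303 and 1529.

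Of 118 signalling genes 45 were higher and 8 lower, and 7 of the 118 had under 10 reads in each untreated library. Of the other 111, 39 were higher and 8 lower. Wnt ligands and antagonists were higher in 19 of 28 with a median log2 change of 1.499, and in 16 of the 25 with at least 10 reads in an untreated library. Wnt9b, a ligand of kidney and palate, had 10.2, 18.8 and 8.13 normalised reads untreated and 191, 142 and 169 after OHT, and the ligand Wnt2 had 0, 5.65 and 2.71 normalised reads untreated and 71.4, 33.2 and 63.5 after OHT. The groups did not overlap for either gene, and the log2 changes were 3.72 ± 0.45 (SE, adjusted p = 7.60e-09) and 4.22 ± 0.66 (SE, adjusted p = 2.95e-06). The antagonist genes Dkk2 and Frzb rose by 2.98 ± 0.53 (SE, adjusted p = 2.82e-05) and 2.94 ± 0.63 (SE, adjusted p = 4.38e-04). The Frzb value was 1.72 without untreated replicate 3, and that of Wnt2 3.45 without untreated replicate 1. Wnt2 and Dkk2 had under 10 reads in each untreated library and passed the read minimum only through other libraries, so their increases were in part selected by the filter. The retinoic acid list was higher in 8 of 17 and covered synthesis, breakdown and reception. Aldh1a2, which makes retinoic acid, had 71.6, 64.1 and 97.6 normalised reads untreated and 297, 225 and 445 after OHT. Cyp26b1, which degrades it, had 32.0, 38.6 and 24.4 normalised reads untreated and 135, 88.1 and 112 after OHT. Every OHT library lay above the untreated libraries, with log2 changes of 2.00 ± 0.31 (SE, adjusted p = 2.46e-06) and 1.79 ± 0.37 (SE, adjusted p = 2.65e-04), and the receptor gene Rxrg rose by 1.92 ± 0.42 (SE, adjusted p = 4.93e-04).

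The TGF-beta family went both ways, with 10 of 31 higher and 4 lower. The higher count was 4 without untreated replicate 3 and 3 without OHT replicate 1, and the lower count was 2 without the gDNA-seq correction. Bmp6, a ligand of the BMP branch, had 386, 301 and 388 normalised reads untreated and 1339, 973 and 1112 after OHT. The groups were apart, with a log2 change of 1.67 ± 0.25 (SE, adjusted p = 1.35e-06), and Gdf6 and Gdf10 rose by 2.29 ± 0.41 (SE, adjusted p = 3.48e-05) and 4.29 ± 0.63 (SE, adjusted p = 7.75e-07), the latter at 3.39 without untreated replicate 1. Gdf10 had under 10 reads in each untreated library and passed the read minimum only through other libraries. Of the 28 family members with at least 10 reads in an untreated library, 8 were higher and 4 lower. Lefty1, a Nodal antagonist expressed in ESCs, had 4987, 4004 and 5594 normalised reads untreated and 2229, 2213 and 2623 after OHT. Gdf15, a stress-induced member, had 205, 175 and 163 normalised reads untreated and 55.0, 56.4 and 51.5 after OHT. Both fell in every pair, with log2 changes of -1.04 ± 0.22 (SE, adjusted p = 2.85e-04) and -1.71 ± 0.35 (SE, adjusted p = 1.87e-04) on the log2 scale. Of 19 FGF ligands, 5 were higher and 1 lower, with 3 higher without OHT replicate 3, and 3 higher and 3 lower with TMM. Fgf9 rose by 2.33 ± 0.44 (SE, adjusted p = 7.85e-05), while Fgf4, the main autocrine FGF of ESCs, had 7476, 5036 and 7029 normalised reads untreated and 4021, 2603 and 4295 after OHT. All Fgf4 values after OHT were below the untreated ones, with a log2 change of -0.85 ± 0.22 (SE, adjusted p = 0.00381), a call lost without OHT replicate 2 and without the gDNA-seq correction.

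Hedgehog and Notch genes showed no common direction, with 3 of 23 (13.0%) higher and 3 lower, beside 12.7% and 1.4% of all symbols. The higher count was 5 under the replicate block and 7 without the gDNA-seq correction. Of the hedgehog ligands Ihh and Dhh were tested and were both higher, Shh did not reach the read minimum, and the receptor gene Ptch1 was lower. Ihh had 0, 2.83 and 8.13 normalised reads untreated and 39.6, 30.9 and 30.7 after OHT, and Dhh had 25.6, 9.42 and 24.4 normalised reads untreated and 126, 82.0 and 92.0 after OHT. Ptch1, the hedgehog receptor and a target of the pathway, had 6279, 4278 and 5067 normalised reads untreated and 2503, 2089 and 2016 after OHT. No group overlapped the other for these 3 genes, with log2 changes of 3.40 ± 0.60 (SE, adjusted p = 2.36e-05), 2.38 ± 0.43 (SE, adjusted p = 3.07e-05) and -1.23 ± 0.20 (SE, adjusted p = 6.89e-06). Dll1, a Notch ligand, had 1865, 627 and 1373 normalised reads untreated and 526, 317 and 489 after OHT. It fell by 1.43 ± 0.28 (SE, adjusted p = 1.38e-04). The Ihh value was 2.54 without untreated replicate 1, and Ihh, with under 10 reads in each untreated library, passed the read minimum only through other libraries. Notch4, at -0.73 ± 0.26 (SE, adjusted p = 0.0498), lost its call in most fits with a library left out, and Dlk1, an imprinted gene related to the Notch ligands, rose by 2.67 ± 0.29 (SE, adjusted p = 7.41e-10).

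By number, neuronal genes gave the most increases among the kinds of genes outside transcription factors, and few of them (9 of 191) were under 10 reads in every untreated library. By share, the Wnt list (67.9% higher) and the primitive endoderm markers (57.9%) lay above each single neuronal list. Axon guidance ligands and receptors were higher in 28 of 53, voltage-gated channel genes in 37 of 68 and neurotransmitter receptor genes in 34 of 70, and 1 gene of the 3 lists, the serotonin receptor Htr5a, was lower, a call lost without untreated replicate 1 or 3 or OHT replicate 2 and in the 6 libraries alone. Ephb1, an ephrin receptor, had 123, 162 and 126 normalised reads untreated and 1529, 1303 and 1527 after OHT. Dcc, the netrin receptor, had 10.2, 27.3 and 6.78 normalised reads untreated and 284, 322 and 418 after OHT. Both moved with no overlap, by log2 changes of 3.40 ± 0.26 (SE, adjusted p = 9.60e-14) and 4.64 ± 0.38 (SE, adjusted p = 1.75e-13). The guidance receptor Nrp1 rose by 2.97 ± 0.33 (SE, adjusted p = 1.16e-09) and the semaphorin Sema3d by 2.90 ± 0.31 (SE, adjusted p = 4.39e-10). Of the potassium channels, Kcnd3 had 33.2, 18.8 and 43.4 normalised reads untreated and 525, 397 and 379 after OHT, and Kcna1 had 23.0, 12.3 and 18.98 normalised reads untreated and 332, 168 and 237 after OHT. They rose in all 3 pairs, by 3.79 ± 0.34 (SE, adjusted p = 3.58e-12) and 3.68 ± 0.38 (SE, adjusted p = 1.30e-10), though Kcnd3 overlaps a gene on the other strand. Chrm3, the muscarinic receptor M3, had 83.1, 208 and 52.9 normalised reads untreated and 1239, 1479.8 and 2401 after OHT. Gria1, an AMPA receptor subunit, had 49.9, 102 and 55.6 normalised reads untreated and 348, 581 and 905 after OHT. OHT replicate 3 was the highest library for both, and the log2 changes were 4.06 ± 0.32 (SE, adjusted p = 9.85e-14) and 3.09 ± 0.35 (SE, adjusted p = 1.44e-09).

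Of 48 germline genes 23 were higher and 2 lower, and no tested member was under 10 reads in every untreated library. Meiotic chromosome genes were higher in 12 of 26 and lower in 1 (3 with TMM). Germ granule and piRNA genes were higher in 11 of 22 (7 to 12 among the alternatives) and lower in 1. Tex11, of meiotic crossovers, had 491, 466 and 523 normalised reads untreated and 2403, 1747 and 1884 after OHT. Sycp2, of the synaptonemal complex, had 542, 483 and 340.2 normalised reads untreated and 1992, 1557 and 1723 after OHT. The groups were apart for both, by 2.01 ± 0.22 (SE, adjusted p = 7.17e-10) and 1.97 ± 0.23 (SE, adjusted p = 3.11e-09) on the log2 scale. In the germ granule, Ddx4, the RNA helicase also called Vasa, had 721, 566 and 453 normalised reads untreated and 2488, 1622 and 1989 after OHT. Tdrd1, a Tudor protein that binds PIWI, had 133, 139 and 106 normalised reads untreated and 741, 571 and 494 after OHT. These rose by 1.81 ± 0.23 (SE, adjusted p = 2.32e-08) and 2.24 ± 0.27 (SE, adjusted p = 9.30e-09). Prdm1, a factor that specifies germ cells, fell, with a log2 change of -1.10 ± 0.28 (SE, adjusted p = 0.00277), which was not called without the gDNA-seq correction. The remaining lower gene, Meiob, lost its call when any of 4 libraries was left out.

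Few cell cycle genes were called, with 1 of 32 replication and mitosis genes called, or 2 without untreated replicate 1, OHT replicate 2 or the gDNA-seq correction. That gene was Ccnd2, a D-type cyclin, which had 293, 128 and 163 normalised reads untreated and 819, 439 and 523 after OHT. Its groups were apart, with a log2 change of 1.64 ± 0.32 (SE, adjusted p = 9.28e-05). Of 8 cyclin-dependent kinase inhibitors, 2 were higher, and 4 without untreated replicate 1 or without the gDNA-seq correction. Cdkn2a, the locus of the INK4A and ARF inhibitors, had 182, 71.6 and 127 normalised reads untreated and 435, 223 and 297 after OHT. Cdkn1c, an imprinted inhibitor, had 607, 354 and 484 normalised reads untreated and 1629, 884 and 926 after OHT. The OHT libraries lay above the untreated libraries for both, with log2 changes of 1.36 ± 0.33 (SE, adjusted p = 0.00218) and 1.22 ± 0.29 (SE, adjusted p = 0.00149). Of 20 p53 target genes, 4 (20%) were higher, beside 12.7% of all symbols. That count went from 2 without untreated replicate 3 or OHT replicate 1 to 8 without untreated replicate 1 and was 10 without the gDNA-seq correction. Pmaip1, a p53-induced apoptosis gene, rose by 1.40 ± 0.24 (SE, adjusted p = 2.03e-05) and Btg2 by 0.94 ± 0.24 (SE, adjusted p = 0.00287).

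The integrated stress response, the ATF4-driven set of genes for amino acid supply and stress, had 7 of 15 genes lower and none higher, with a median log2 change of -0.79. Chac1, which degrades glutathione, had 900.1, 856 and 778 normalised reads untreated and 176, 254 and 233 after OHT. Nupr1, a stress-induced chromatin protein, had 354, 267 and 302 normalised reads untreated and 84.9, 61.9 and 81.1 after OHT. Trib3, a pseudokinase induced by ATF4, had 721, 883 and 755 normalised reads untreated and 317, 256 and 319.9 after OHT. In each of these 3 genes the highest OHT library lay below the lowest untreated library, with log2 changes of -1.94 ± 0.30 (SE, adjusted p = 1.74e-06), -2.01 ± 0.33 (SE, adjusted p = 5.51e-06) and -1.40 ± 0.26 (SE, adjusted p = 5.03e-05). Ddit3, the factor CHOP, had 1243, 588 and 843 normalised reads untreated and 333, 222 and 233 after OHT. It fell in all 3 pairs, with a log2 change of -1.72 ± 0.28 (SE, adjusted p = 7.75e-06), and it overlaps Mars on the other strand. Atf5, Psat1 and Mthfd2, the other 3 called, were chosen after their values were seen, and changed by -1.07, -0.79 and -0.81. The list's lower count was 6 to 8 with a library left out, 10 with TMM and 4 without the gDNA-seq correction. Of 15 heat shock genes none was called, beside 12.7% of all symbols higher and 1.4% lower. The difference between these 2 lists was not tested.

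The transcripts that fell most, among those with a mean of at least 100 normalised reads untreated, shared few list members. 6330410L21Rik had 166, 237 and 239.9 normalised reads untreated and 17.4, 19.3 and 28.5 after OHT. Its OHT values were far below the untreated ones, with a log2 change of -3.26 ± 0.39 (SE, adjusted p = 4.40e-09) on the log2 scale, but it lies across Egf on the other strand. Slc28a1, a nucleoside transporter, had 881, 409 and 869 normalised reads untreated and 201, 134 and 175 after OHT. Slc5a4b, a member of the sodium-glucose transporter family, had 357, 210.2 and 381 normalised reads untreated and 82.0, 59.5 and 104 after OHT. Both fell without overlap, with log2 changes of -2.01 ± 0.30 (SE, adjusted p = 8.57e-07) and -1.92 ± 0.35 (SE, adjusted p = 3.94e-05). Napsa, an aspartic protease, fell by 1.81 ± 0.37 (SE, adjusted p = 1.89e-04), and Kis2, Tmem154, 2610037D02Rik and Sgol2b by log2 values from -2.31 to -1.74. Slc5a4b and Sgol2b have close paralogues, and only uniquely aligned reads were kept, so their counts are less certain.

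**Figure D4:**
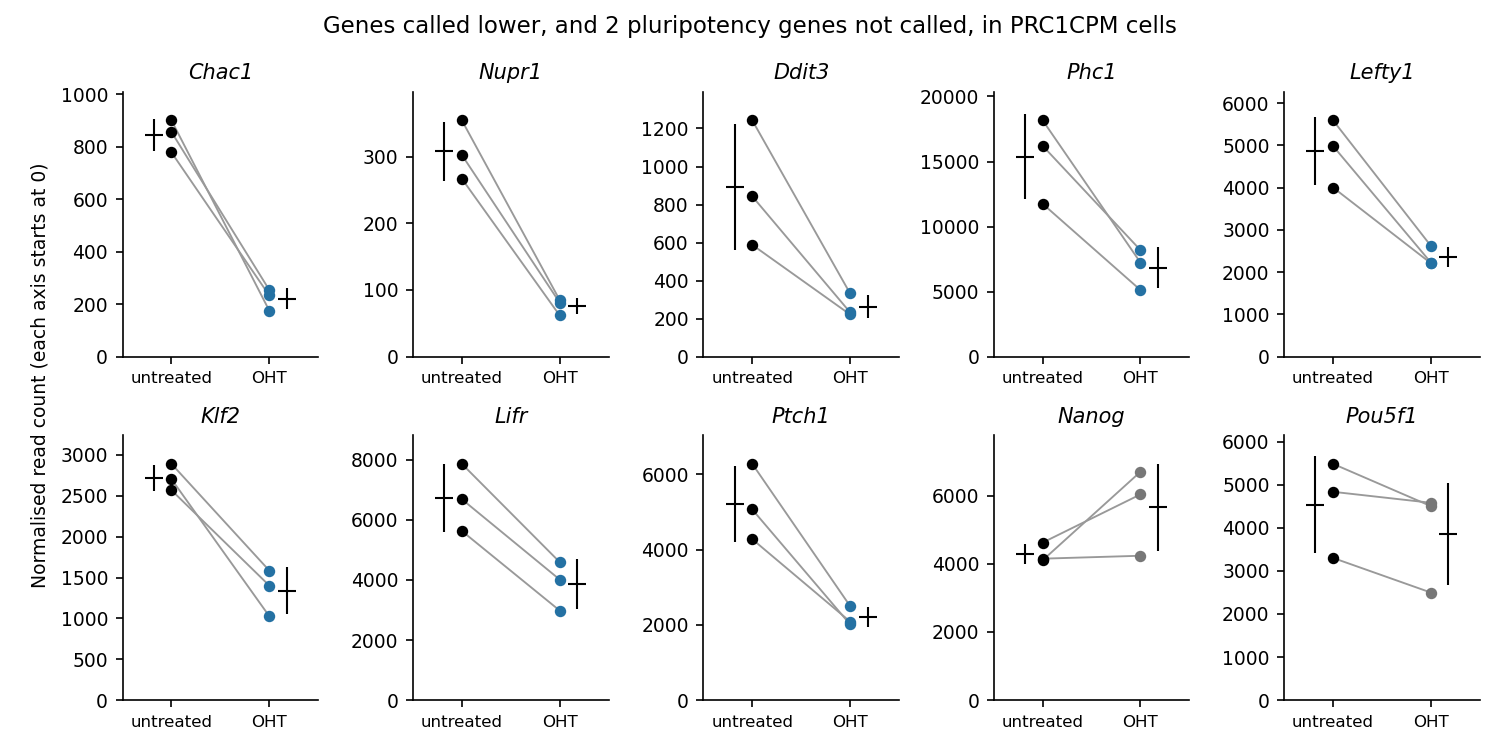
Normalised read counts of 8 genes called lower (blue) and of Nanog and Pou5f1, which were not called (grey), with untreated libraries in black, grey lines joining libraries of the same replicate number and a bar with the mean ± SD of 3 libraries beside each group. The OHT libraries of the 8 called genes all lie below their untreated libraries, as for Chac1, and those of Nanog and Pou5f1 overlap them.

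Naive pluripotency factors were mostly not called: of 19, 1 was higher and 3 lower, with a median log2 change of -0.15. Without the gDNA-seq correction 3 were higher and 2 lower and the median was 0.14, and without OHT replicate 2 there were 2 higher. Pou5f1 (OCT4) had 5484, 3300.3 and 4835 normalised reads untreated and 4503, 2497 and 4581 after OHT, and Nanog had 4623, 4151 and 4105 normalised reads untreated and 6037, 4237 and 6701 after OHT. The groups overlapped, and the changes were -0.25 ± 0.23 (SE, adjusted p = 0.63) and 0.37 ± 0.20 (SE, adjusted p = 0.286). Within pairs, Pou5f1 fell in all 3 and Nanog rose in all 3. With the replicate block in limma their adjusted p were 0.196 and 0.0386, and neither was called, the Nanog fold being 1.30. Sox2, which lies within Sox2ot, changed by -0.45 ± 0.20 (SE, adjusted p = 0.136), Esrrb by -0.14 ± 0.19 (SE, adjusted p = 0.8) and Zfp42 (REX1) by -0.15 ± 0.20 (SE, adjusted p = 0.777). A p that misses the threshold does not show that these genes were the same in both groups, and the values of Pou5f1, Esrrb and Zfp42 turn above 0 without the gDNA-seq correction. Klf2, a naive factor, had 2891, 2704 and 2569 normalised reads untreated and 1586, 1028 and 1402 after OHT. Nr0b1 (DAX1) had 611, 577 and 584 normalised reads untreated and 238, 220.4 and 409.7 after OHT. These fell with no overlap, with log2 changes of -1.04 ± 0.23 (SE, adjusted p = 4.56e-04) and -1.08 ± 0.26 (SE, adjusted p = 0.00188). Tbx3, both a T-box and a naive factor, had 3681, 3299 and 3371 normalised reads untreated and 7509.7, 4915 and 8261 after OHT and rose by 0.97 ± 0.20 (SE, adjusted p = 2.99e-04).

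The receptors for LIF, the cytokine that holds ESCs in self-renewal, were lower. Lifr had 7866, 5631 and 6688 normalised reads untreated and 4597, 2983 and 4016 after OHT. Il6st (gp130), its co-receptor, had 5691, 5423 and 5149.7 normalised reads untreated and 3654, 2537 and 3115 after OHT. The OHT values lay below the untreated ones for both, with log2 changes of -0.81 ± 0.21 (SE, adjusted p = 0.00325) and -0.82 ± 0.20 (SE, adjusted p = 0.00215), and neither was called without the gDNA-seq correction. Osmr, the related receptor of oncostatin M, had 65.2, 52.8 and 24.4 normalised reads untreated and 286, 163 and 157 after OHT, a rise of 2.12 ± 0.38 (SE, adjusted p = 2.83e-05). The other 12 genes on the LIF and STAT3 list were not called, and the higher count was 2 without OHT replicate 2 and 3 without the gDNA-seq correction. Primed epiblast genes were split, with 4 of 17 higher, 2 of them without untreated replicate 3 or OHT replicate 1, and 2 lower, or 4 lower with TMM. Cdh2 (N-cadherin) rose by 1.27 ± 0.28 (SE, adjusted p = 6.32e-04), and Zic5 fell by 1.43 ± 0.27 (SE, adjusted p = 7.84e-05). ERK feedback genes were higher in 2 of 17 (11.8%), near the 12.7% of all symbols. They were higher in 4 with the replicate block, in 6 without the gDNA-seq correction, and in 1 with TMM or without untreated replicate 3, OHT replicate 1 or OHT replicate 3. Etv4, an ETS factor induced by FGF signalling, rose by 1.36 ± 0.26 (SE, adjusted p = 9.28e-05).

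Genes of the Polycomb system itself were called about as often as all symbols. Of 66 PRC1, PRC2 and deubiquitinase genes tested, 10 (15.2%) were higher and 1 (1.5%) lower, beside 12.7% and 1.4% of all symbols. Of 17 PRC1 core and canonical subunits, 4 were higher and 1 lower. Cbx8, a chromodomain subunit, had 17.9, 16.02 and 2.71 normalised reads untreated and 91.7, 62.6 and 77.8 after OHT. Bmi1, the subunit PCGF4, had 183, 146 and 214 normalised reads untreated and 523, 319 and 552 after OHT. Both rose without overlap of the groups, by 2.87 ± 0.49 (SE, adjusted p = 1.12e-05) and 1.33 ± 0.28 (SE, adjusted p = 2.76e-04) on the log2 scale, Cbx8 by 2.11 without untreated replicate 3. Phc1, a polyhomeotic subunit, had 18162, 11746 and 16204 normalised reads untreated and 7233, 5121 and 8190.2 after OHT. It fell with the groups apart, with a log2 change of -1.17 ± 0.21 (SE, adjusted p = 4.26e-05). Phc2, at 0.78 ± 0.23 (SE, adjusted p = 0.0123), was not called without untreated replicate 3 or OHT replicate 1. Among variant PRC1 subunits, 4 of 23 were higher, 1 of them beyond 2-fold, and Bcor, of the PCGF1 complex, had 1018, 659.7 and 899 normalised reads untreated and 3009, 2168 and 2592 after OHT. Every OHT library of Bcor was above the untreated ones, with a log2 change of 1.602 ± 0.22 (SE, adjusted p = 1.36e-07). Auts2, of the PCGF3 and PCGF5 complexes, rose by 0.87 ± 0.21 (SE, adjusted p = 0.00205).

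Of 12 PRC2 subunit genes 1 was called higher, Jarid2, at 0.66 ± 0.20 (SE, adjusted p = 0.0181), and that call was lost with TMM, with no filter and without untreated replicate 3 or OHT replicate 1. The list had a median log2 change of 0.10, beside 0.0915 for all symbols, and -0.00822 with TMM. Of 14 genes for H2AK119 deubiquitinases, Asxl3, a partner of BAP1, rose by 0.91 ± 0.24 (SE, adjusted p = 0.00481). Of 16 DNA methylation genes 1 was lower, Tet2, at -0.77 ± 0.24 (SE, adjusted p = 0.0179), a call lost in 3 of the 6 fits with a library left out. Imprinted genes were higher in 8 of 42, 5 without OHT replicate 1, and lower in 2. Dio3 had 38.4, 26.4 and 29.8 normalised reads untreated and 336, 169 and 315 after OHT, and Dlk1 had 277, 107 and 155 normalised reads untreated and 1429, 886 and 957 after OHT. These neighbours in 1 imprinted domain rose by 3.03 ± 0.33 (SE, adjusted p = 7.16e-10) and 2.67 ± 0.29 (SE, adjusted p = 7.41e-10), with no overlap of the groups. Plagl1, an imprinted zinc finger factor, rose by 1.83 ± 0.29 (SE, adjusted p = 3.54e-06). Snrpn and Impact changed by -0.84 ± 0.22 (SE, adjusted p = 0.0039) and -0.76 ± 0.20 (SE, adjusted p = 0.00547), and neither was called without the gDNA-seq correction.

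Housekeeping lists held few calls. No cytosolic ribosomal protein gene (0 of 64), ribosome biogenesis gene (0 of 27) or oxidative phosphorylation gene (0 of 48) was called, with median log2 changes of -0.07, -0.08 and -0.07, which turn to 0.23, 0.21 and 0.23 without the gDNA-seq correction. Glycolysis genes had 2 of 22 lower and cholesterol synthesis genes 2 of 25, with medians of -0.29 and -0.31. Without the gDNA-seq correction neither list had a call, and the medians were 0.00131 and -0.0101. These counts ran from 0 without OHT replicate 2 to 6 and 9 without untreated replicate 2, and the second was 6 with TMM and 0 with DESeq2. In the first list the lower members were Pfkp, which overlaps Pitrm1 on the other strand, at -0.85 ± 0.22 (SE, adjusted p = 0.0038), and Eno2, at -0.84 ± 0.26 (SE, adjusted p = 0.0205). Pfkp lost its call without OHT replicate 2 and Eno2 without untreated replicate 1 or 3 or OHT replicate 2, and neither was called without the gDNA-seq correction. In the second list Msmo1, an enzyme of sterol demethylation, changed by -0.77 ± 0.26 (SE, adjusted p = 0.0343) and lost its call when any of the same 3 libraries as for Eno2 was left out.

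Markers of cells that the cultures could hold moved in part. Primitive endoderm markers were higher in 11 of 19, lower in none, and lower in 3 with the replicate block. Sox7 had 5.11, 11.3 and 9.49 normalised reads untreated and 61.8, 51.0 and 54.8 after OHT, and the basement membrane gene Col4a2 had 1924, 1577 and 1408 normalised reads untreated and 5245, 3628 and 2798 after OHT. Both rose, by 2.62 ± 0.42 (SE, adjusted p = 4.23e-06) and 1.21 ± 0.25 (SE, adjusted p = 2.36e-04). Summed over the 19 genes, the level was 72126, 50129 and 57618 normalised reads untreated and 77183, 50449 and 56128 after OHT, with Lamc1, the member with most reads, giving 26.2% of it, and the groups overlapped. Afp and Ttr, which mark visceral endoderm, had at most 6 reads in any PRC1CPM library and were not tested. Trophoblast markers were higher in 6 of 14, among them Esx1, which had 166, 124 and 134 normalised reads untreated and 824, 630.1 and 647 after OHT and rose by 2.30 ± 0.28 (SE, adjusted p = 9.12e-09). Their sum was 3849, 2562 and 2467 untreated and 6406, 3967 and 4291 after OHT, with the groups apart, and Tfap2c, the member with most reads, gave 31.2% of it. Gata3, Gata4, Gata6, Sox7, Foxa2, Hand1, Cdx2 and Eomes are at once markers here and members of the developmental lists. Whether more such cells or more RNA per cell gave these values cannot be told apart in bulk libraries, for these or any other genes.

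Markers of other lineages were called in both directions. Of 12 fibroblast and feeder markers, Twist1 alone was higher, though 3 were without untreated replicate 1 or without the gDNA-seq correction and 2 with the replicate block, and the defining genes Dcn, Lum and Fap did not reach the read minimum. Their sum was 88050, 58027 and 57443 untreated and 85297, 47649 and 55373 after OHT, 85.8% of it Fn1, with the groups overlapping. Of 17 markers of the 2-cell-like state, only 2 were found by symbol in the deposited gene set. Neither was called, and Eif1ad gave 82.8% of their reads, so the list cannot report on that state. Genes of finished tissues were higher in 4 of 35 (11.4%, beside 12.7% of all symbols) and lower in 5 (14.3%, beside 1.4%). Among them, 1 of 5 blood genes, 1 of 5 liver and gut genes and 2 of 25 muscle contractile genes were higher. The first of these were Cd8a, at 2.02 ± 0.48 (SE, adjusted p = 0.00166), and Lgals4, at 2.17 ± 0.32 (SE, adjusted p = 7.75e-07). The liver and gut count was 2 and the muscle count 1 with TMM, among other settings. Muscle genes were lower in 5 of 25, in 2 or 3 when any library was left out and in 1 without the gDNA-seq correction. Tnnt1, a slow muscle troponin, had 300.5, 169.6 and 235 normalised reads untreated and 124, 69.6 and 114 after OHT. Its groups were apart, with a log2 change of -1.19 ± 0.32 (SE, adjusted p = 0.0052), and it was not called without the gDNA-seq correction. Acta1, Actc1 and Myl3 each lost their call in at least 2 of the 6 fits with a library left out, and Ttn, named after its values were seen, changed by -0.93.

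Among all genes, the largest increases with a mean of at least 100 normalised reads after OHT crossed many functions. Trhde, an ectoenzyme that degrades TRH, had 7.67, 5.65 and 0 normalised reads untreated and 208, 108 and 116 after OHT. Esrrg, an orphan nuclear receptor, had 67.8, 87.6 and 70.5 normalised reads untreated and 1696, 1289 and 952 after OHT. Duox2, a peroxide-making oxidase of the thyroid, had 12.8, 15.1 and 25.8 normalised reads untreated and 405, 249.7 and 288 after OHT. No OHT library came near the untreated range for these 3 genes, with log2 changes of 5.17 ± 0.54 (SE, adjusted p = 1.79e-10), 4.07 ± 0.28 (SE, adjusted p = 7.44e-16) and 4.09 ± 0.39 (SE, adjusted p = 1.40e-11). Duoxa2, the maturation factor of Duox2, rose with it, by 4.95 ± 0.58 (SE, adjusted p = 3.20e-09). Sorcs3, a neuronal sorting receptor, had 38.4, 17.0 and 18.98 normalised reads untreated and 623, 416 and 345 after OHT. Zic1, a neural zinc finger factor, had 7.67, 1.88 and 8.13 normalised reads untreated and 149, 81.2 and 137 after OHT. These rose by 4.21 ± 0.37 (SE, adjusted p = 1.13e-12) and 4.29 ± 0.47 (SE, adjusted p = 7.05e-10). Trhde, Duoxa2 and Zic1 had under 10 reads in each untreated library and passed the read minimum only through other libraries. Their increases were thus in part selected by the filter. Nr2f2 (COUP-TFII) rose by 4.12 ± 0.58 (SE, adjusted p = 3.10e-07) and Mamld1 by 4.09 ± 0.44 (SE, adjusted p = 4.84e-10), and Nr2f2 and Esrrg each overlap a gene on the other strand. For 4 of these genes the fold moved by over 1.5 times with 1 library left out: without untreated replicate 3 the log2 change was 2.66 for Nr2f2 and 4.19 for Trhde, without untreated replicate 1 it was 4.04 for Duoxa2, and without untreated replicate 2 it was 3.45 for Mamld1. Over read pairs the Nr2f2 ratio was 7.998, with a 95% counting interval of 5.10 to 13.2.

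Of the 5754 transcripts with at least 1000 normalised reads untreated, 135 were higher, and the 8 genes with the largest increases among them are given here. P4ha2, a collagen prolyl hydroxylase, had 3028, 1715 and 1925 normalised reads untreated and 6317, 4693 and 7893 after OHT. Hs6st3, a heparan sulfate sulfotransferase that overlaps another gene on its own strand, had 1147, 1385 and 743 normalised reads untreated and 4276, 3496 and 2579.7 after OHT. Slit2, a guidance ligand, had 2359, 1914 and 1249.8 normalised reads untreated and 5431, 3874 and 4242 after OHT. The groups were apart for all 3, with log2 changes of 1.52 ± 0.24 (SE, adjusted p = 3.31e-06), 1.68 ± 0.25 (SE, adjusted p = 6.92e-07) and 1.33 ± 0.21 (SE, adjusted p = 4.82e-06). Efna5, Sdk1, Serpine2, Ak4 and Col4a2 were the rest of these 8, with log2 changes from 1.21 to 1.41. Together the 2226 transcripts called higher took 3.03% of the untreated and 6.43% of the OHT normalised reads. Grouped by the letters before the first digit of the symbol, the stems of at least 15 tested symbols with the largest shares higher were Wnt (15 of 18), Adamts (11 of 19), Col (20 of 44), Cdh (9 of 20) and St (9 of 25, a mixed stem). The first 3 of these are Wnt ligands, secreted metalloproteases and collagens. Those with the largest shares lower were Klf (2 of 17), Arhgef (2 of 25), Syt and Unc (1 of 16 each) and Usp (3 of 49), beside 1.4% of all symbols. These shares rest on 1 to 3 genes each, and Arhgef, Syt and Unc had more members higher (3, 4 and 5) than lower.

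Increases were more frequent at a low starting level and in long genes. Of transcripts with under 10 normalised reads untreated 41.7% were higher, then 25.2% from 10 to 100, 12.7% from 100 to 1000 and 2.35% from 1000. The first of these shares is raised by the filter, since such transcripts needed reads in other libraries to be tested. Per kilobase of gene body the same order held, with 37.7% higher in the lowest of 4 equal groups and 1.02% in the highest. That lowest group starts at 0 normalised reads per kb, so the same limit of the filter holds for its share. The untreated level of transcripts called higher had a median of 1.63 normalised reads per kb against 20.8 for all tested and 34.0 for those called lower. Of transcripts from genes of at least 100 kb 30.6% were higher, against 8.79% to 11.4% for the shorter bins, with standard errors of the log2 change that are smaller for long genes than for the shortest (median 0.238 against 0.338) but near those of the 20 to 100 kb bin (0.240). The number of CG dinucleotides from 250 bases before to 50 after the start made little difference by itself, the share going from 14.5% with the fewest to 12.5% with the most. Within transcripts under 10 normalised reads it went the other way, with 62.4% higher at 20 CG or more against 36.4% below, and from 10 to 100 with 39.1% against 20.7%. The limit of the filter holds for both shares under 10 normalised reads as well. These are descriptions of bins and carry no test.

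**Figure D5:**
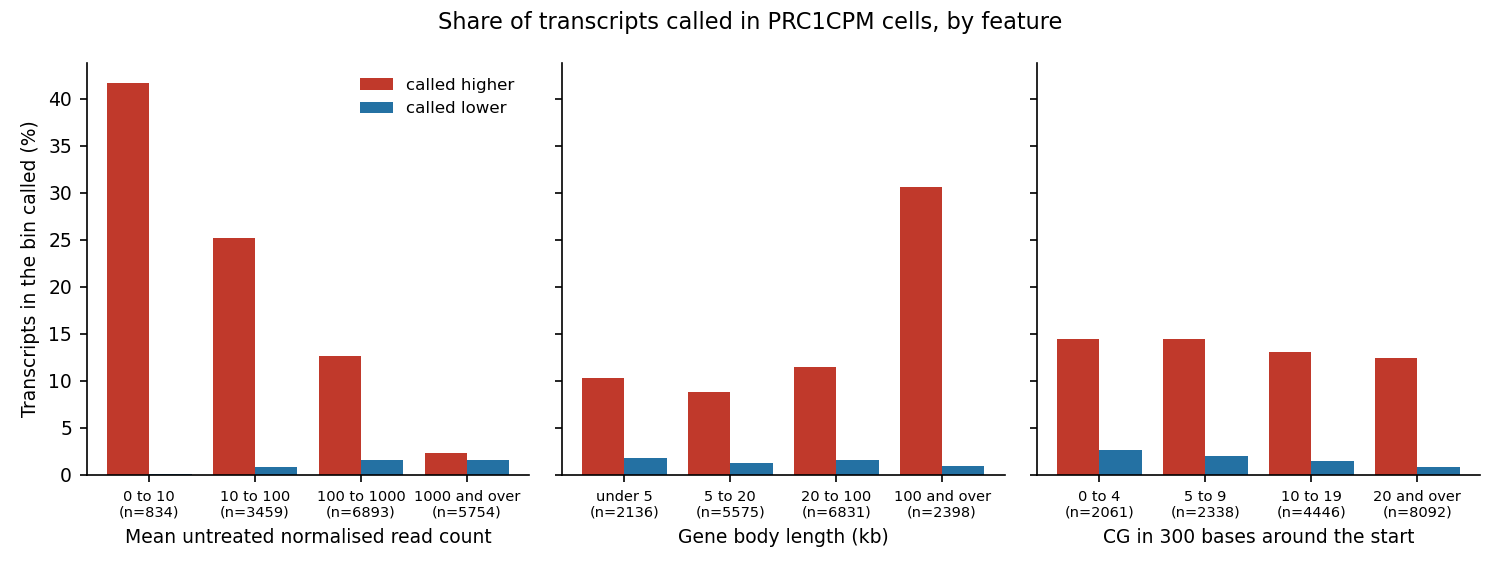
Bars give the percentage of tested transcripts called higher (red) or lower (blue) in PRC1CPM cells, by mean untreated normalised read count, gene body length and number of CG around the start, with the transcripts per bin under each bar. The share higher falls from 41.7% in the lowest count bin, where it is raised by the filter on reads, to 2.35% in the highest. It reaches 30.6% for genes of at least 100 kb.

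The 300 bases around the start are shown for the risers and fallers, among the largest 10 of each way that have an entry, with the most and the fewest CG, to show how far promoters within each direction differed. They are RefSeq sequences on GRCm38, in the sense of the gene, with each CG in capitals.
Mamld1, higher, chrX:71050006-71050305, plus strand, 36 CG: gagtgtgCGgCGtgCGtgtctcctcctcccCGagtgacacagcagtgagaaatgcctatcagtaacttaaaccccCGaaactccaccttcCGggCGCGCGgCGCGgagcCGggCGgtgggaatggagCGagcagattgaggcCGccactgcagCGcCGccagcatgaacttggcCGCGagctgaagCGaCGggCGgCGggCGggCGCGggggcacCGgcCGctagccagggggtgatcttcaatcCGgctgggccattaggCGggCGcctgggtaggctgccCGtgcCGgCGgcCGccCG
Nr2f2, higher, chr7:70366697-70366996, minus strand, 2 CG: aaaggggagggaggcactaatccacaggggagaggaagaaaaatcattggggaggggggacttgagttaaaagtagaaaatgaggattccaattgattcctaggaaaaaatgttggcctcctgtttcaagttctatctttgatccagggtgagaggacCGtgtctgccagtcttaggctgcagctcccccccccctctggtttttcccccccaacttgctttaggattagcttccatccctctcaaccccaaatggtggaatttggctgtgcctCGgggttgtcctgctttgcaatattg
Chac1, lower, chr2:119350992-119351291, plus strand, 17 CG: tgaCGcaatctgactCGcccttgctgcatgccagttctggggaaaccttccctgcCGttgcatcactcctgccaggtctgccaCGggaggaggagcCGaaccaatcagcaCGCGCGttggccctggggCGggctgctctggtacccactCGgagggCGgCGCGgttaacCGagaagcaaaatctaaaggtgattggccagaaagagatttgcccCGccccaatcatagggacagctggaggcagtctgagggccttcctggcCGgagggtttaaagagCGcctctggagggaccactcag
Slc5a4b, lower, chr10:76110969-76111268, minus strand, 2 CG: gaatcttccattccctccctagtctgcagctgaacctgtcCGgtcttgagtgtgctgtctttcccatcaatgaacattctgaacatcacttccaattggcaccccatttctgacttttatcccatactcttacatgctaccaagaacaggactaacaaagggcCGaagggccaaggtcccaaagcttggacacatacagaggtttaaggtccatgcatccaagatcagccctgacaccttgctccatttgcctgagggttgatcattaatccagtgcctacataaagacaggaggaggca
Of all 16937 promoters of tested transcripts with a sequence, 11.5% hold at least as many CG as that of Mamld1, 56.6% as that of Chac1 and 97.2% as those of Nr2f2 and Slc5a4b. The Nr2f2 entry is 1 start of a gene with several, and the other starts were not analysed here. CG was counted on 1 strand, which gives the same number on the other.

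Against loss of the protein itself, the difference between the lines was tested as the interaction of line and treatment. It called 4 transcripts of 16940, of Ebf2, Mecom and Grb10, with 497 at an unadjusted p under 0.05, 4 by edgeR and 15 by DESeq2, and 271 (1.6%) with the replicate block, 211 of them with the smaller value in PRC1CPM cells. Ebf2, a factor of neurons and fat, had 15.3, 32.0 and 21.7 normalised reads untreated and 397, 319 and 226 after OHT in PRC1CPM cells. In PRC1CKO cells it had 5.96, 6.16 and 1.69 and 934, 680.3 and 692. It rose in both lines and the log2 change was lower by 3.48 ± 0.54 (SE, adjusted p = 7.32e-04) in PRC1CPM cells. With the block, 18 of the named genes passed, among them Pax3, with log2 changes of 4.03 in PRC1CPM and 5.97 in PRC1CKO cells (blocked adjusted p = 0.000425). Cdkn2a had 1.36 and 2.76 (blocked adjusted p = 0.000597) and Bmi1 1.33 and 2.43 (blocked adjusted p = 0.00297). Cdx1 went the other way, with 3.12 in PRC1CPM and 1.85 in PRC1CKO cells (blocked adjusted p = 0.000425). None of these 4 passed without the block, where their adjusted p lay between 0.512 and 1.00.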

How the data were processed

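The authors mixed mouse and Drosophila cells, sequenced rRNA-depleted directional libraries as 80 bp pairs, discarded rDNA reads with Bowtie 2, aligned the rest with STAR and Bowtie 2 to mm10 and dm6, removed duplicates with Sambamba and counted reads over gene bodies of 20633 transcripts. The deposited signal is that count divided by a DESeq2 size factor from Drosophila reads, corrected by matched gDNA-seq. The authors also deposited log2 fold changes and adjusted p-values, which were not used.

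All values (100%) were whole reads within 0.02. A transcript needed 10 reads in 3 of the 12 libraries, which left 16940, and log2(value + 1) was fitted with limma 3.58.1 (R 4.3.3; 1 mean per condition, trend, Benjamini-Hochberg). edgeR 4.0.16 and DESeq2 1.42.0 were alternatives on the recovered reads. The scripts were tested on simulated data. Same-numbered untreated and OHT libraries deviated together (r = 0.255, 0.438 and 0.246 across transcripts, others below 0), so the numbers pair the samples. The study calls its replicates biological. Members and lists were chosen with earlier results of these data known.

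Named are Ring1 and Rnf2, up to 4 called members of each of 48 lists each way, or the member that moved most where none was called, the 10 largest changes each way, the 8 largest increases from 1000 normalised reads, and members of the pluripotency and Polycomb lists. Some genes that the rule covers are not reported here. Promoters were read from RefSeq and bases from GRCm38 with pysam 0.24.0.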

Additional observations from a re-analysis of the deposited data

Results flagged for a closer look

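The interaction of line and treatment set 4 transcripts apart. Ebf2 differed by -3.48 (PRC1CPM minus PRC1CKO, log2). Mecom differed by -2.44 ± 0.47 (SE, adjusted p = 0.0274), with 61.4, 59.4 and 29.8 normalised reads untreated and 406, 269.8 and 211 after OHT in PRC1CPM cells and 17.9, 20.01 and 25.4 and 879, 589.6 and 646 in PRC1CKO cells. The 2 overlapping transcripts of Grb10, which share reads, differed by -1.75 and -1.77 (adjusted p = 0.0305 and 0.0274). Untreated Grb10 (the shorter transcript) was at 3749, 3462 and 2207 in PRC1CPM and 627, 279 and 285 in PRC1CKO cells. Mecom was not called with TMM (adjusted p = 0.0507) or without the gDNA-seq correction (adjusted p = 0.184), and neither Grb10 transcript was called without that correction (adjusted p = 0.373 and 0.32). DESeq2 did not call the shorter Grb10 transcript (adjusted p = 0.0609) and called the longer one (adjusted p = 0.0432). Each of these 3 transcripts was called in 4 of the 6 limma fits with a library left out, and Ebf2 in all 6. With no filter on low counts none of the 4 was called. Untreated Ebf2 was at 15.3, 32.0 and 21.7 in PRC1CPM and 5.96, 6.16 and 1.69 in PRC1CKO cells. The untreated libraries of the 2 lines were thus apart for all 4 transcripts, and whether that bears on the differences was not tested.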

How the results depend on the processing

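Genes higher numbered 1439 to 2523 with a library left out, 3428 without the gDNA-seq correction and between 1576 and 3120 in the other alternatives. Genes lower numbered 123 to 339 with a library left out, 595 with TMM, 68 without the gDNA-seq correction, 453 with the replicate block, 507 with the block in the 6 PRC1CPM libraries alone, 693 with the block and TMM, 125 above 2-fold and 108 at an adjusted p under 0.01. The median log2 change ran from -0.0406 to 0.252 with a library left out and was 0.394 without the gDNA-seq correction. Interaction calls numbered 1 to 14 with a library left out, 15 with DESeq2, 14 with TMM, 0 with no filter, 1 with a pseudocount of 0.1, 271 with the block and 237 with the block and TMM. The combinations of the block with TMM or with the 6 libraries were chosen after seeing the data. Of 176 called named genes, none changed sign, 147 were called whichever library was left out and 138 in every alternative. The block changed no call of named genes in this contrast, while it added 18 named genes to the interaction calls. Without the gDNA-seq correction, uncalled genes turned positive: Esrrb 0.157, Pou5f1 0.0416, Ring1 0.0909, Rnf2 0.123 and Zfp42 0.143, and Pou5f1 ran from -0.469 to 0.0328 with a library left out, above 0 without OHT replicate 2. Of 1728 list counts under the alternatives, 195 moved by over 1.5 times. The causes were not tested. Low counts limit the fold changes of genes near silent in untreated cells.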
